A study of Mus musculus with 5 samples.

Results

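Genes that mark the stem cell compartments of the resting hair follicle were examined in dorsal skin of *Clock* mutant and wild-type mice. The 10 genes were *Lgr5*, *Lgr6*, *Cd34*, *Sox9*, *Lhx2*, *Nfatc1*, *Cdh3*, *Krt15*, *Tcf7l1* and *Foxc1*. Every probe set that the array annotation assigned to 1 of these 10 genes alone was taken, which gave 21 of the 45101 probe sets on the array. These 10 are among 18194 genes that the annotation names through such probe sets. *Nfatc1* had 5 probe sets, *Sox9* had 3, and *Cd34*, *Lhx2* and *Krt15* had 1 each. The other 5 genes had 2 probe sets each.

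In the resting follicle, the bulge is the niche that holds the slow-cycling stem cells, and the secondary hair germ is the small cell cluster below it, next to the dermal papilla. Hair germ cells are the first to divide when a new growth phase (anagen) begins, and bulge cells follow. LGR5 and LGR6 are receptors for R-spondins, which enhance Wnt signalling. SOX9, LHX2, NFATC1, TCF7L1 and FOXC1 are transcription factors of follicle stem cells, several of which are known to hold these cells in quiescence or preserve their identity. CD34 is a surface protein of mouse bulge cells, KRT15 a keratin of the bulge and basal layer, and CDH3 (P-cadherin) an adhesion protein of hair germ cells.

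The arrays were from 2 *Clock* mutant mice and 3 wild-type littermates, all at postnatal day 23. The mice were staged by histology as telogen, the resting phase, shortly before the mutants were seen to lag in the hair cycle. The study's wild-type time course classes the same day as early anagen, and it shows wild-type follicles of that day in the initial stage of anagen. Day 23 thus lies at the border of rest and growth. The study's methods place the *Clock* line on a C57BL/6J background, and the study's supplement writes the genotype of the staged *Clock* mutants as Cl/Cl, that is, homozygous. The labels of these arrays give no allele or zygosity. The sexes were not balanced, since the first *Clock* mutant replicate was a male and the rest were females. In its staging of *Bmal1* mice the study saw slightly more advanced hair cycling in males, and it compared genotypes among littermates matched by gender. Each mouse had its own array, hybridised from cRNA of 11 µg of total RNA of whole dorsal skin, and the values are MAS5 signal intensities on a linear scale. Differences below are means of log2 intensity in *Clock* mutant minus wild-type skin, with their standard errors (SE), from limma with an intensity trend.

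Array medians were 106.0 and 114.4 in the mutants and between 116.1 and 118.1 in the wild types, and correlations between arrays lay between 0.950 and 0.960. *Clock* itself had 4 tested probe sets, with differences from -0.53 to 0.25, and 0 of them passed the adjusted threshold. The smallest p was at 1439314_at, with 121 and 155 in the mutants and 188, 224 and 181 in the wild types, so that the groups did not overlap (difference -0.53, unadjusted p = 0.0256, adjusted p = 0.40). These levels check no label, since the sources do not say whether the allele alters the amount of transcript. *Clock* mutant replicate 1 stood apart in the genes of growing follicles, as described below. Whole skin mixes many cell types, so fewer cells of a type and less RNA per cell cannot be told apart in any of these values.

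None of the 10 genes passed the test at any probe set. Of the 21 probe sets, 18 reached the 40th percentile of mean log2 intensity that was required for testing, and every gene had at least 1 among them. In limma, 0 of the 18 were past an adjusted p of 0.05, against 0.0888% of all 27022 probe sets tested, and their adjusted p-values ran from 0.273 to 0.962. At an unadjusted p under 0.05 there were 3 of 18 (16.7%), all lower in the mutants, against 10.8% of all probe sets in either direction and 6.71% lower. These 3 were the *Cd34* probe set and 2 of the 5 of *Nfatc1*. At an unadjusted p under 0.001 there were 0 of 18, against 0.548% of all. The mutant and wild-type arrays did not overlap for 5 of 18 probe sets (27.8%), against 27.9% of all, so that on this count the genes stood at the background. Of these 5, 4 were lower in the mutants, against 15.1% of all, and 1 was higher, against 12.8%.

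The differences were also small on the whole. Over the brightest tested probe set of each gene, the median difference was 0.022, with 5 genes above and 5 below 0 and a range from -0.25 (*Cdh3*) to 0.22 (*Sox9*). The median over all 12955 genes tested was 0.016. Of the 10 genes, 9 differed by less than 0.25 in size, and 80.3% of all genes did. The limit of 0.25 was chosen after the values were seen, and *Cdh3* lay just outside it. The 95% interval of the difference stayed within 1 log2 unit on either side of 0 for 16 of the 18 probe sets, and the 2 others were probe sets of *Nfatc1*. Missing the threshold does not show that the levels were alike, and the intervals give the differences that the arrays leave possible.

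**Figure D1:**
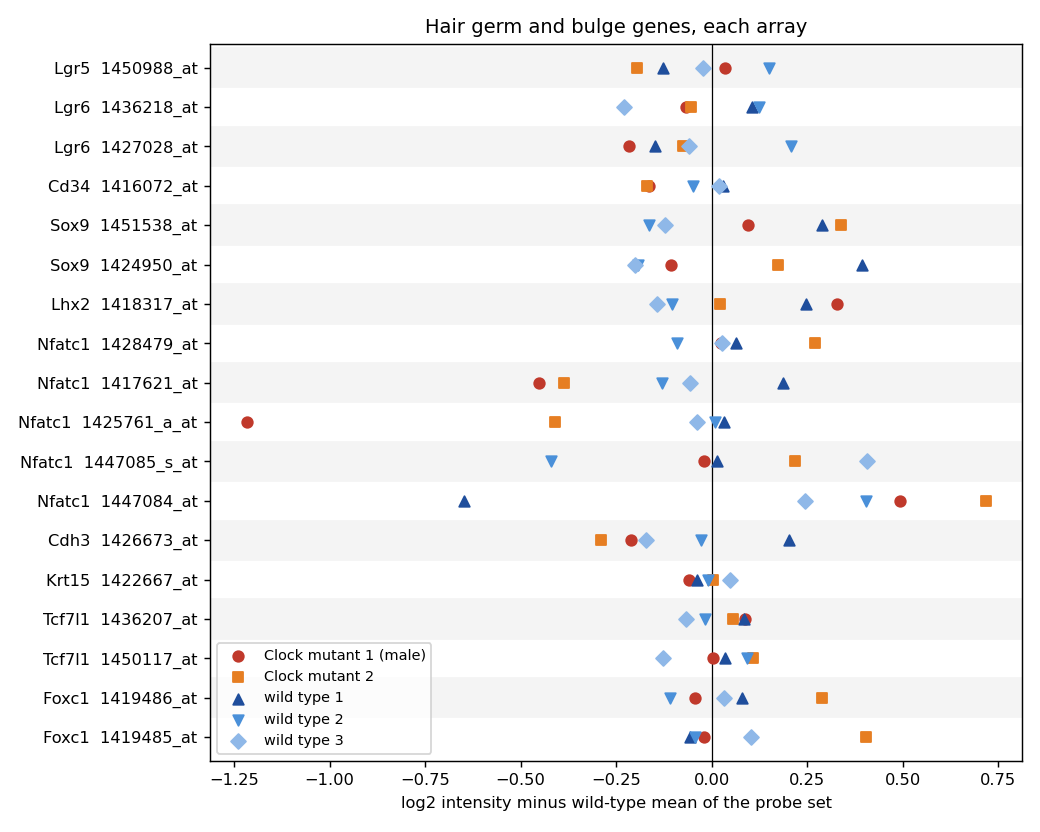
Log2 intensity of each array minus the wild-type mean of the same probe set (x axis), for the 18 tested probe sets of the 10 genes (rows), with 1 symbol per array. Most symbols lie within 0.5 of 0, the *Cd34* mutant arrays sit together at -0.16 and -0.17, and *Clock* mutant replicate 1 lies at -1.22 for *Nfatc1* 1425761_a_at.

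Of the R-spondin receptors, *Lgr5*, which marks the hair germ and lower bulge, had intensities of 634 and 540 in *Clock* mutant replicates 1 and 2 and of 566, 686 and 608 in wild-type replicates 1, 2 and 3 at probe set 1450988_at. The groups overlapped, with 1 mutant array inside the wild-type range and the other below it. The difference was -0.080 (SE 0.131, adjusted p = 0.858), and its 95% interval ran from a level 23.0% lower to one 16.3% higher. The other *Lgr5* probe set, 1444519_at, was too dim to test, at 1.62 and 16.5 in the mutants and 11.8, 21.4 and 27.8 in the wild types.

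*Lgr6*, a receptor of the same family that is found in the upper follicle and isthmus, had 2 tested probe sets. At 1436218_at the mutants had 1182 and 1192 and the wild types 1331, 1349 and 1056, and the difference was -0.061 (SE 0.122, adjusted p = 0.889). Both mutant arrays lay inside the wild-type range. At 1427028_at the mutants had 192 and 212 and the wild types 201, 258 and 214, a difference of -0.15 (SE 0.174, adjusted p = 0.786). The groups overlapped there too.

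*Cd34* lay lower on both mutant arrays. At 1416072_at the mutants had intensities of 7671 and 7644 and the wild types 8771, 8312 and 8718. Both mutant arrays lay below all 3 wild-type arrays, and the mutants differed from each other by less than the wild types did. The difference was -0.17 (SE 0.066), or 10.9% lower with a 95% interval from 19.6% to 1.28% lower. Its unadjusted p was 0.0314 and its adjusted p 0.420, so *Cd34* did not pass the test. After median centring of the arrays the difference was -0.079, and the unadjusted p was 0.05 or more in 9 of 15 alternative settings. *Cd34* is also made by endothelial and other dermal cells. Of 7 endothelial markers, 0 were past the adjusted threshold and 1 was at an unadjusted p under 0.05. That gene was *Tek*, a receptor of blood vessels, at 951 and 906 in the mutants and 714, 668 and 710 in the wild types (difference 0.41, unadjusted p = 0.00281, adjusted p = 0.254). The median difference of the endothelial list was 0.022, and their summed intensity was 5539 and 5234 in the mutants and from 5005 to 5110 in the wild types. The part of endothelial cells in the *Cd34* value was not tested.

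*Krt15* had the narrowest interval of the 10 genes. At 1422667_at the mutants had 18123 and 18956 and the wild types 18411, 18762 and 19539. The mutant and wild-type arrays interleaved. The difference was -0.028 (SE 0.062, adjusted p = 0.898), and the 95% interval ran from 11.0% lower to 8.08% higher.

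*Cdh3* had the largest difference among the brightest probe sets of the 10 genes. At 1426673_at the mutants had 336 and 318 and the wild types 447, 382 and 345, so that the groups did not overlap, but the highest mutant array lay close to the lowest wild-type array. The difference was -0.25 (SE 0.150, unadjusted p = 0.127, adjusted p = 0.568). The second probe set, 1441255_at, was too dim to test, with values from 17.4 to 50.8.

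Among the transcription factors, *Sox9*, which is needed for the stem cell pool of the follicle, had 2 tested probe sets. At 1451538_at the mutants had 635 and 753 and the wild types 726, 531 and 547. The difference was 0.22 (SE 0.159, adjusted p = 0.646), and wild-type replicate 1 lay between the 2 mutant arrays. At 1424950_at the mutants had 482 and 586 and the wild types 683, 454 and 451, a difference of 0.034 (SE 0.193, adjusted p = 0.962). Wild-type replicate 1 was above the other wild types at both probe sets. The third, 1433889_at, was too dim to test, with values from 7.03 to 37.3.

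*Lhx2*, a regulator of bulge stem cell identity, had 1331 and 1075 in the mutants and 1258, 986 and 960 in the wild types at 1418317_at. *Clock* mutant replicate 1 and wild-type replicate 1 were the highest 2 arrays. The difference was 0.17 (SE 0.145, adjusted p = 0.686).

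*Tcf7l1*, a Wnt pathway repressor of stem cells, had nearly level values at both probe sets. At 1436207_at the mutants had 1156 and 1131 and the wild types 1154, 1076 and 1039, a difference of 0.072 (SE 0.096, adjusted p = 0.817). At 1450117_at the mutants had 848 and 912 and the wild types 866, 902 and 775, a difference of 0.056 (SE 0.110, adjusted p = 0.884). The groups overlapped at both.

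*Foxc1*, a forkhead factor that keeps bulge cells quiescent, had the highest value in *Clock* mutant replicate 2 at both probe sets, while *Clock* mutant replicate 1 lay inside the wild-type range at both. At 1419486_at the mutants had 1214 and 1527 and the wild types 1322, 1159 and 1279, a difference of 0.12 (SE 0.120, adjusted p = 0.739). At 1419485_at the mutants had 710 and 953 and the wild types 693, 699 and 773, a difference of 0.19 (SE 0.140, adjusted p = 0.646). Without *Clock* mutant replicate 1 the differences were 0.29 and 0.40, with adjusted p-values of 0.760 and 0.665. That setting leaves 1 mutant array, which is assumed to vary like the others.

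**Figure D2:**
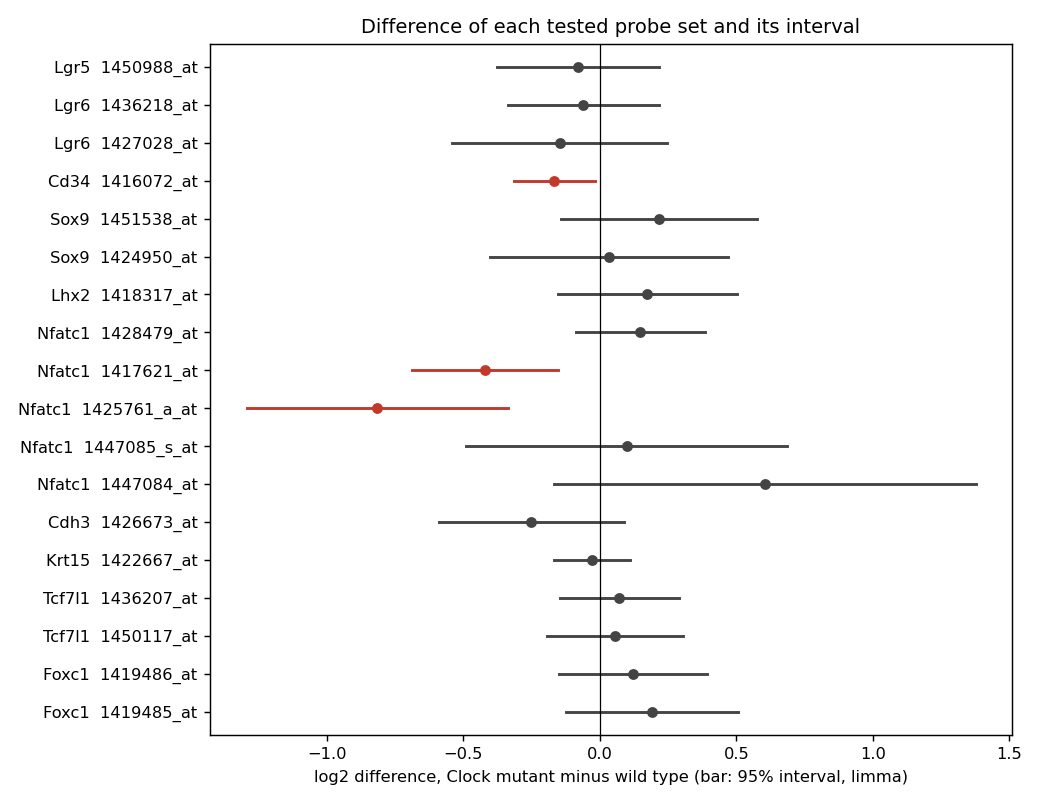
Difference of log2 intensity, *Clock* mutant minus wild type (points), with its 95% interval from limma (bars), for the 18 tested probe sets. Red marks the 3 whose interval does not hold 0, *Cd34* and 2 of *Nfatc1*, and 0 of 18 passed the adjusted threshold.

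*Nfatc1*, a calcineurin-dependent factor that is known to restrain bulge stem cells, was the gene whose probe sets disagreed. At 1428479_at the mutants had 1474 and 1748 and the wild types 1513, 1360 and 1475, with replicate 2 above all wild types and replicate 1 among them, and a difference of 0.15 (SE 0.105, adjusted p = 0.631). At 1417621_at the mutants had 777 and 813 and the wild types 1210, 972 and 1021. Both mutant arrays lay below all 3 wild types there, with a difference of -0.42 (SE 0.118, unadjusted p = 0.00625, adjusted p = 0.308).

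At 1425761_a_at the mutants had 209 and 366 and the wild types 497, 489 and 473. The wild types lay close together and both mutants below them, *Clock* mutant replicate 1 by far the lower. The difference was -0.81 (SE 0.212), or 43.1% lower with a 95% interval from 59.2% to 20.7% lower (unadjusted p = 0.00395, adjusted p = 0.273). Replicate 1 carried much of this size. With replicate 1 left out the difference was -0.41 (adjusted p = 0.694), and with replicate 2 left out it was -1.22 (adjusted p = 0.0239), which was the only 1 of 267 member values over the alternatives to pass the threshold. Both 1417621_at and 1425761_a_at had an unadjusted p under 0.05 in all 15 alternatives.

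The 2 dimmer *Nfatc1* probe sets did not follow. At 1447085_s_at the mutants had 133 and 157 and the wild types 137, 100.9 and 179, a difference of 0.099 (SE 0.260, adjusted p = 0.917). At 1447084_at the mutants had 94.0 and 110 and the wild types 42.7, 88.5 and 79.2, without overlap and in the opposite direction, at 0.60 (SE 0.341, adjusted p = 0.550). The mean difference over the 5 probe sets was -0.076.

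The log2 ratio of each *Nfatc1* probe set to 1428479_at was then compared within arrays, a comparison made after the values had been seen. Relative to 1428479_at, the mutants differed from the wild types by -0.57 at 1417621_at and by -0.96 at 1425761_a_at. The groups did not overlap in either ratio. The two-sided exact permutation p, taken as 2 times the smaller tail, was 0.2. In that form, 0.2 is the smallest p that the 10 ways of splitting 2 and 3 arrays allow. The differences were -0.050 at 1447085_s_at (exact permutation p = 1) and 0.46 at 1447084_at (exact permutation p = 0.6), with overlap in both. With so few arrays this test cannot reach 0.05, so unequal change across the probe sets was not established, and the arrays cannot show which probe set follows the gene as a whole.

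**Figure D3:**
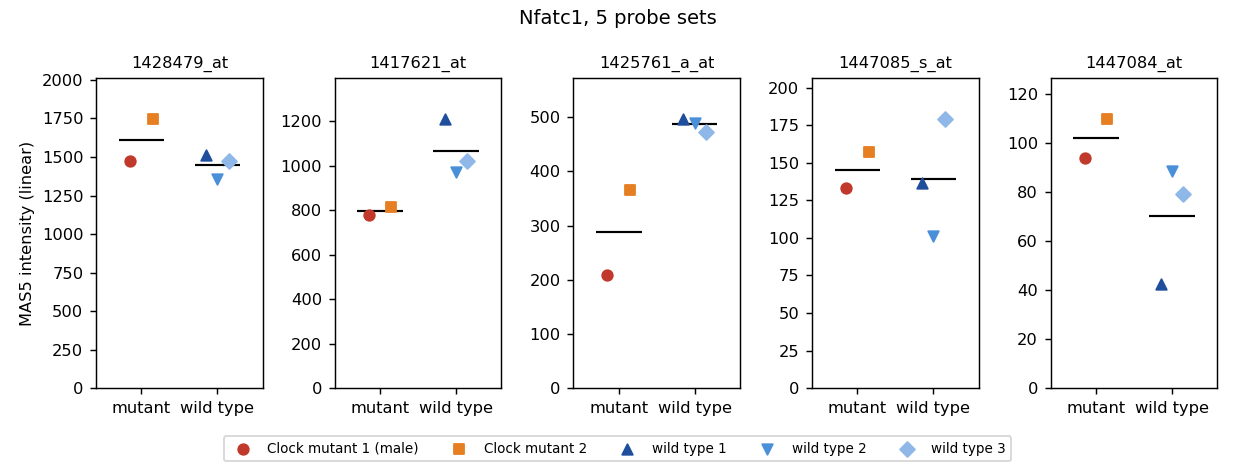
MAS5 intensity (y axis, linear, from 0, with its own scale in each panel) of the 5 *Nfatc1* probe sets in 2 *Clock* mutant and 3 wild-type arrays, with black lines at the group means. The mutants lie below all wild types at 1417621_at and 1425761_a_at, above them at 1447084_at, and among them at 1447085_s_at. At 1428479_at replicate 1 lies among the wild types and replicate 2 above them.

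Genes that work with these 10 showed the same absence of calls. The 7 related lists held 50 genes, of which 46 were tested, and limma called 0 of them at an adjusted p of 0.05. At an unadjusted p under 0.05 there were 3 (6.52%), 2 lower and 1 higher, against the 10.8% of all probe sets. The first share is over genes, each by its brightest probe set, and the second over probe sets, so the 2 are not strictly alike. *Wif1*, a secreted Wnt inhibitor of the bulge, had 227 and 208 in the mutants and 335, 316 and 273 in the wild types (difference -0.50, unadjusted p = 0.0109, adjusted p = 0.350). *S100a6*, a calcium-binding protein enriched in the bulge, had 7669 and 7809 in the mutants and 7325, 6229 and 6738 in the wild types (difference 0.20, unadjusted p = 0.0389, adjusted p = 0.442). The groups did not overlap for these 2 genes, which was also so for 27.9% of all probe sets tested.

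Of 13 bulge-enriched genes, all tested, the median difference was 0.057, with 9 genes above 0 and 4 below. Of the 8 hair germ and early growth signals, 7 were tested, with a median difference of 0.085 and 0 at an unadjusted p under 0.05. The 2 with the smallest p were the Hedgehog effector *Gli1* (-0.27, adjusted p = 0.562) and the Hedgehog receptor *Ptch1* (0.23, adjusted p = 0.596). *Shh*, the highest of the list at 0.39, had 87.0 and 52.1 in the mutants and 33.3, 77.8 and 52.2 in the wild types. Its mutant values helped it past the filter, an intensity of 56.7. The list median was 0.064 with no filter and also with the filter at the 60th percentile. The 5 upper follicle genes had a median difference of -0.0093 and also 0 at an unadjusted p under 0.05. The medians of these 3 lists lay between -0.0093 and 0.085.

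In the R-spondin pathway, 7 of 9 genes were tested, with a median difference of -0.011 and 0 at an unadjusted p under 0.05. The smallest p there belonged to the Wnt co-receptor *Lrp6* (-0.15, adjusted p = 0.529). *Lgr4*, the third receptor of the family, had 3285 and 3673 in the mutants and 3619, 3587 and 3301 in the wild types (difference -0.011). The levels of *Lgr4* overlapped between genotypes, as those of *Lgr5* and *Lgr6* did. In the TCF and LEF family, 3 of 4 genes were tested, with a median difference of -0.31 and 0 at an unadjusted p under 0.05. The 2 of smallest p were the Wnt effectors *Tcf7l2* (-0.32, adjusted p = 0.576) and *Lef1* (-0.31, adjusted p = 0.685). The median of the 3 did not hold when a mutant array was left out, at -0.019 without *Clock* mutant replicate 1 and -0.0032 without replicate 2, and it was -0.14 with the filter at the 60th percentile.

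Of the 8 calcineurin and NFAT genes, all tested, 1 was at an unadjusted p under 0.05. It was *Nfatc4*, a relative of *Nfatc1*, with 706 and 678 in the mutants and 777, 850 and 895 in the wild types (difference -0.28, unadjusted p = 0.0306, adjusted p = 0.418). *Rcan1*, a calcineurin regulator that NFAT factors are known to activate, had 2743 and 2754 in the mutants and 2650, 1866 and 2679 in the wild types (difference 0.22, adjusted p = 0.618). The median of the list was 0.037. Of the 5 adherens junction partners of P-cadherin, 0 were at an unadjusted p under 0.05, and their median was -0.043.

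The largest median difference of any list was in genes of growing hair, and it was mostly on 1 array. Of 20 such genes 12 were tested, with 0 past the adjusted threshold and a median difference of 1.48. At an unadjusted p under 0.05 were 8 of them, all higher in the mutants, against 10.8% of all probe sets in either direction. The 8 were *Tchh* and the keratins *Krt25*, *Krt27*, *Krt28*, *Krt31*, *Krt71*, *Krt72* and *Krt73*. *Crym* (0.40), *Hoxc13* (0.23), *Foxn1* (-0.052) and *Dlx3* (-0.0032) were not at that p. *Krt73* had 83.5, 39.3 and 35.2 in wild-type replicates 1, 2 and 3 and 414 in *Clock* mutant replicate 1. Its mutant values helped it past the filter, an intensity of 56.7, so its direction was favoured by the filter. The median of the list was 1.74 with no filter and also with the filter at the 60th percentile. Not tested were *Krt33a*, *Krt33b*, *Krt34*, *Krt35*, *Krt85*, *Krt86*, *Padi3* and *Gprc5d*. Their median deviations from the wild-type mean were 2.23 and 0.62 in the mutants (replicate 1, then 2), against 0.49, -0.28 and -0.23 in wild-type replicates 1, 2 and 3. *Krt28*, an inner root sheath keratin, had 435 and 207 in the mutants and 135, 91.7 and 88.3 in the wild types. *Tchh*, which encodes trichohyalin of the inner root sheath, had 1225 and 315 in the mutants and 280, 147 and 155 in the wild types. Summed over the 12 genes, the intensities came to 8929 and 2306 in the 2 mutants and from 1315 to 2357 in the wild types, so that replicate 2 lay inside the wild-type range and replicate 1 well above it.

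The median deviation of the stem cell genes, 5 of which had positive and 5 negative differences, was -0.0092 and 0.013 in the 2 mutants and 0.081, -0.038 and -0.046 in the 3 wild types. The 15 proliferation genes had median deviations of 0.45 and -0.14 in the mutants and 0.12, -0.049 and -0.079 in the wild types, with 0 past the adjusted threshold. *Clock* mutant replicate 1, the male and the array highest in hair growth genes, was also the lowest array in *Nfatc1* at 1417621_at and 1425761_a_at. It was lowest too in *Krt15* and in *Lgr6* at 1427028_at, and highest in *Lhx2* and in *Tcf7l1* at 1436207_at. These places were read off the 18 tested probe sets after the values were seen. The part of hair growth or sex in these values was not tested.

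**Figure D4:**
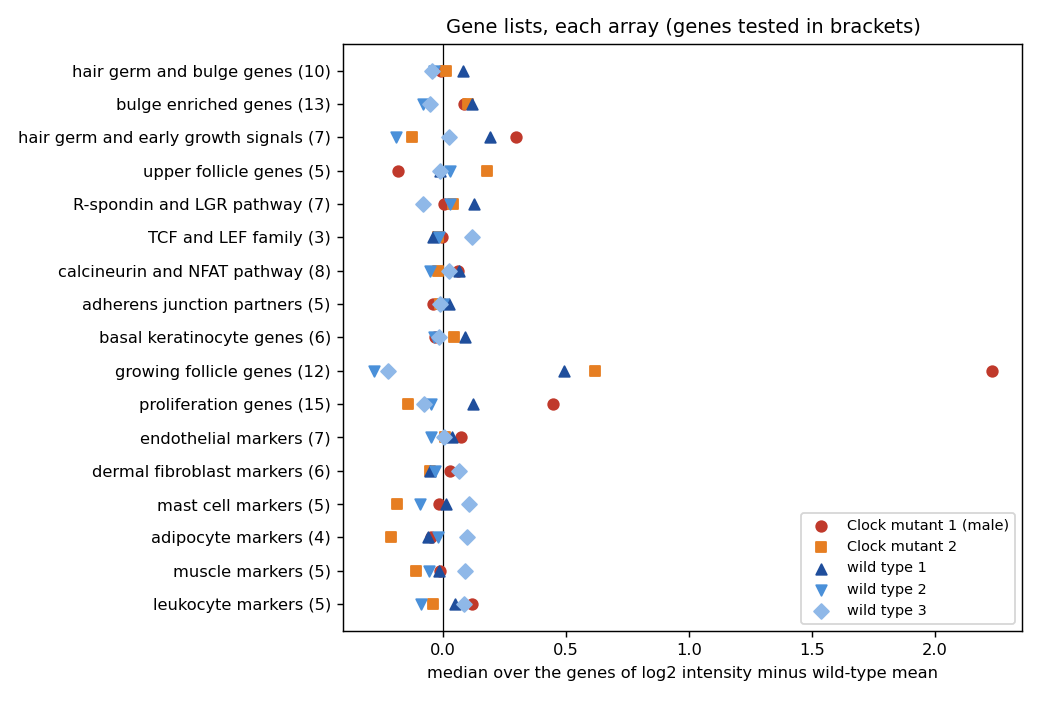
Median over the tested genes of a list of log2 intensity minus the wild-type mean (x axis), for each gene list (rows, number of genes in brackets) and array (symbols). The hair germ and bulge genes lie between -0.046 and 0.081 on every array, while the growing follicle genes spread from -0.28 in a wild type to 2.23 in *Clock* mutant replicate 1.

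Markers of the other tissues in whole skin gave 0 calls at the adjusted threshold. The median difference was -0.051 for 6 basal keratinocyte genes, -0.0076 for 6 dermal fibroblast genes, -0.066 for 5 muscle genes and -0.030 for 5 leukocyte genes, with 0 at an unadjusted p under 0.05 in any of these lists. Of these lists no gene was below the filter, and all 5 muscle genes had negative differences. The median was -0.18 for 5 mast cell genes, with the protease *Mcpt4* (-0.30, adjusted p = 0.302) lower at an unadjusted p under 0.05, and -0.13 for the 4 adipocyte genes tested. All 4 adipocyte genes had negative differences, and 2 of the 4 were at an unadjusted p under 0.05, against 6.71% of all probe sets in that direction. These were the lipid droplet gene *Cidec* (-0.36, unadjusted p = 0.00947, adjusted p = 0.339) and the fatty acid carrier *Fabp4* (-0.18, unadjusted p = 0.0301, adjusted p = 0.416). Here too a count of genes is set beside a share of probe sets. The part of fat or muscle in the values of the stem cell genes was not tested.

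CLOCK and its partner BMAL1 bind E-boxes, most often CACGTG and more loosely CANNTG, so the promoters of the genes were searched on both strands, each motif being its own reverse complement in form. RefSeq windows on GRCm38.p6, from 250 bases before to 50 after a transcription start, were at hand for 5 of the genes, 6 windows in all (*Lgr6*, *Cd34*, *Lhx2* with 2, *Tcf7l1* and *Foxc1*). CACGTG was in 0 of the 6, against 7.15% of 32851 windows. CANNTG, which includes CACGTG and was added after the first search, was in 2 of the 6, the *Lgr6* window and the second of *Lhx2*, against 72.3% of all windows. No match says only that these letters are not in this window.

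The 250 bases before the start are shown, 5′ to 3′ along the gene, for *Cd34* and *Lgr6*. *Cd34* was the gene outside *Nfatc1* whose interval did not hold 0, and *Lgr6* was a gene with a CANNTG match before its start. The capitals mark that match, CAGCTG, which begins 205 bases before the start, and the *Cd34* stretch holds no CANNTG. The *Cd34* stretch is chr1:194938571-194938820 on the plus strand and the *Lgr6* stretch chr1:135105277-135105526 on the minus strand, both of GRCm38.p6.
Cd34: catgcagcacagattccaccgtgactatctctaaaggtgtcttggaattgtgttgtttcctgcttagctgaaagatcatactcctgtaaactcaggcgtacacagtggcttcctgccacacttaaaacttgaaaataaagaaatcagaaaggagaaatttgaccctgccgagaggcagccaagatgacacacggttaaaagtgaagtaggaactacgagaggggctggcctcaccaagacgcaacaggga
Lgr6: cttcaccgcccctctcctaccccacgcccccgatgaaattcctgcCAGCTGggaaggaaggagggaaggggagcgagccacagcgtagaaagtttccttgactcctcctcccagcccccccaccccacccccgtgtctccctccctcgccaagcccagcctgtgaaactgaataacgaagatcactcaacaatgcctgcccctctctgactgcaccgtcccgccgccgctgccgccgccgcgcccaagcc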

How the data were processed

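Total RNA of whole dorsal skin from 5 mice (2 *Clock* mutant, 3 wild type, named as biological replicates by the labels) was hybridised to 1 Affymetrix array per mouse. The authors deposited MAS5 signal intensity values, 1 per probe set and array, on a linear scale, with a 2% trimmed mean of 500.0 on each array when tested on the values. MAS5 subtracts mismatch signal and is noisy for dim probe sets. Its version was not given in the sources used here.

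Of 45101 probe sets, 64 controls were left out. Gene names came from the platform annotation given for this work, and only through probe sets with 1 symbol (34945). 932 probe sets had several symbols and 9160 had none. Intensities under 1 (2441 values) were set to 1, log2 was taken, and 18015 probe sets whose log2 intensity averaged below the 40th percentile (56.7 as intensity) were left out. The remaining 27022 were fitted in limma 3.58.1 (R 4.3.3; lmFit, eBayes with trend, two-sided tests). P-values were adjusted by Benjamini-Hochberg across these 27022, at a cutoff of 0.05 (prior degrees of freedom 6.04). The deposited scaling was kept because array medians differed by 0.16 on the log2 scale, under a limit of 0.2. A gene stood for its brightest tested probe set in list medians. The study's methods state no test for these arrays. Lists were described by counts and medians, without a set test. The number of arrays limits the precision.

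The genes and lists were chosen with earlier results of these data known. All 10 genes are named at every probe set, and of the related lists up to 2 genes of smallest p. The within-array *Nfatc1* ratios, the CANNTG search, the limit of 0.25 and the promoters shown were chosen after values were seen. *Lgr4*, *Shh*, the *Clock* probe sets and the further genes of growing hair were named outside that rule, also after their values were seen.

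As alternatives, the arrays were quantile normalized or centred on their medians, the filter was dropped or raised to the 60th percentile, 32 was added before log2, and the prior was fitted without a trend or robustly. A Cyber-T style test (prior weight 10), the replicate number as a block, the omission of each array and, for lists, averaging over all probe sets of a gene were also tried. The Cyber-T style test was run in 2 forms. The first, with a variance for each group, was the planned one. It made many false calls on simulated arrays, and after that and its count on these arrays had been seen, a second form with a pooled variance was added. Both are reported. The limma fit was tested on simulated arrays as well. At the adjusted cutoff it recovered 2.7% of changes of 0.5 log2 units and 37.0% of changes of 1.0. The simulated variances followed the form that limma assumes, so the simulation favours limma over the other test.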

Additional observations from a re-analysis of the deposited data

How the results depend on the processing

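The absence of calls among the 10 genes held in the main fit and in 14 of 15 alternatives, the exception being 1 call (*Nfatc1* 1425761_a_at) without *Clock* mutant replicate 2. Leaving out 1 array gave 0 to 1 member probe sets past the adjusted threshold and 2 to 5 at an unadjusted p under 0.05. Over all probe sets, the 24 adjusted calls became 10 with no filter, 0 with no trend in the prior, 337 in the Cyber-T style test with a variance per group and 47 in the added form with a pooled variance, and the 148 at an unadjusted p under 0.001 became 60 with no trend and 400 with a variance per group (156 pooled). With 1 array left out the ranges were 0 to 201 and 60 to 377, and the adjusted counts were 13 and 201 without *Clock* mutant replicates 1 and 2 and 20, 0 and 0 without wild-type replicates 1, 2 and 3. The cause was not tested. With 2 and 3 arrays only large differences can pass, and differences at dim probe sets carry the largest errors.

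Same-numbered arrays showed little shared deviation (correlations 0.0078 and 0.099). The 2 mutants deviate from their mean as mirror images, so this check cannot decide whether the numbers pair the mice. With the replicate block, in which wild-type replicate 3 has no partner and adds nothing to the difference, 106 probe sets passed the adjusted threshold and 269 were at an unadjusted p under 0.001, with 0 of the member probe sets past the adjusted threshold. *Sox9* 1424950_at became -0.067 and *Tcf7l1* 1450117_at -0.0075 under the block.

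Of the 18 probe sets, 10 kept their direction in every alternative, and the other 8 had 17 values of opposite sign. *Krt15* was 0.013 after quantile normalization and 0.060 after median centring, which also gave 0.0085 for *Lgr5* 1450988_at and 0.028 for *Lgr6* 1436218_at. With 1 array left out, the probe sets that turned had these ranges. *Krt15* 1422667_at ran from -0.060 to 0.0045, with the turn in sign without *Clock* mutant replicate 1. *Lgr5* 1450988_at ran from -0.20 to 0.036, with the turn in sign without *Clock* mutant replicate 2. *Sox9* 1424950_at ran from -0.11 to 0.23, with the turn in sign without *Clock* mutant replicate 2 or wild-type replicate 2 or wild-type replicate 3. *Nfatc1* 1447085_s_at ran from -0.11 to 0.30, with the turn in sign without *Clock* mutant replicate 2 or wild-type replicate 2. *Foxc1* 1419486_at ran from -0.044 to 0.29, with the turn in sign without *Clock* mutant replicate 2. *Foxc1* 1419485_at ran from -0.021 to 0.40, with the turn in sign without *Clock* mutant replicate 2. *Lgr6* 1436218_at ran from -0.17 to 0.0015, with the turn in sign without wild-type replicate 2. *Tcf7l1* 1450117_at ran from -0.0075 to 0.11, with the turn in sign without wild-type replicate 3. *Sox9* 1451538_at was at an unadjusted p = 0.0290 without wild-type replicate 1 (0.36, adjusted p = 0.370).

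The median over the 10 genes was 0.11 after median centring, which moved the median of all genes to 0.10, and -0.052 with the mean of each gene's probe sets. List medians after median centring were 0.078 (R-spondin), -0.23 (TCF and LEF), 0.12 (calcineurin and NFAT), 0.045 (adherens junction), 0.038 (basal keratinocyte), 0.11 (endothelial), 0.081 (fibroblast) and 0.022 (muscle). With the mean of probe sets they were -0.24 (TCF and LEF), -0.099 (calcineurin and NFAT), -0.087 (adherens junction) and -0.23 (adipocyte). The TCF and LEF median, -0.31 over 3 genes, was -0.23 after quantile normalization, -0.14 with the filter at the 60th percentile and -0.20 with the block, where the endothelial median was -0.025 and the mast cell median -0.052.

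With 1 array left out, the medians ran from -0.0092 to 0.053 (the 10 genes), 0.034 to 0.12 (bulge enriched genes), -0.13 to 0.30 (hair germ and early growth signals), -0.18 to 0.18 (upper follicle genes), -0.081 to 0.042 (R-spondin and LGR pathway), -0.34 to -0.0032 (TCF and LEF family). They ran from -0.021 to 0.060 (calcineurin and NFAT pathway), -0.048 to -0.014 (adherens junction partners), -0.069 to 0.046 (basal keratinocyte genes), 0.62 to 2.23 (growing follicle genes), -0.14 to 0.45 (proliferation genes), -0.025 to 0.072 (endothelial markers). For the remaining lists they ran from -0.054 to 0.027 (dermal fibroblast markers), -0.19 to -0.016 (mast cell markers), -0.21 to -0.048 (adipocyte markers), -0.11 to -0.014 (muscle markers), -0.055 to 0.12 (leukocyte markers).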
